A study of Mus musculus with 11 samples.

Results

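Interferon-stimulated genes are the genes that cells switch on in answer to interferon. The set described here was a list of 44 gene symbols, taken by name but with earlier results of these data known. Counts of members set beside shares of all genes are therefore descriptions, not an independent test. Of the 44 symbols, 40 had a probe set of their own on the array, among 22180 genes in all. Each is represented by its brightest probe set over the whole-stomach arrays. Oas1a, Dtx3l and Gbp2 were covered only by probe sets that also name a second gene, and Ifi44 was not listed with a probe set, so these 4 symbols have no value below.

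Total RNA from C57Bl/6 adult mice was measured on 11 Affymetrix arrays. The 9 whole-stomach arrays came from mice given sunflower oil as vehicle (n = 2), tamoxifen at 5 mg per 20 g of mouse for 3 days (n = 2), rapamycin at 0.6 mg per 20 g for 10 days (n = 3), or both drugs (n = 2), each as daily intraperitoneal injections. Tamoxifen binds oestrogen receptors, and at high dose it is known to injure the acid-secreting parietal cells of the stomach. Rapamycin inhibits the growth kinase mTORC1. The last 2 arrays held isolated parietal cells (n = 1) and the stomach cells left without them (n = 1). No genetic alteration is named for any group. Replicates were labelled as biological; the labels do not say if an array stands for 1 mouse, so p-values measure only the spread between these arrays.

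Interferons bind cell-surface receptors whose JAK kinases phosphorylate STAT proteins. In the type I and type III pathway, phosphorylated STAT proteins join IRF9 in a complex called ISGF3, which binds the interferon-stimulated response element (ISRE) in the promoters of target genes. The targets include enzymes that sense or degrade viral RNA, proteins that block translation or budding of viruses, and regulators, such as IRF7 and USP18, that feed back on the pathway. Type II interferon acts through a different element, the gamma-activated site (GAS).

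Expression is given as the authors' log2 value, so a difference of 1 is a doubling, and a gene was called at an adjusted p under 0.05 (limma, Benjamini-Hochberg over all 22180 genes). A member said to have risen in a comparison was called higher there. Errors after ± are standard errors of the log2 change. Because whole stomach is a mixture, more cells of a type cannot be told apart from more RNA per cell. Levels of different genes are not compared, since probe sets differ in brightness.

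Interferon-stimulated genes were higher in tamoxifen-treated stomach, and the difference was seen both without and with rapamycin. The change from vehicle to tamoxifen was positive for 40 of 40 members (46.4% of all genes), with a median of 0.82 on the log2 scale against -0.02 for all genes. From rapamycin to the combination it was again positive for 40 of 40 (47.6% of all genes), with a median of 1.42 against -0.01. With single comparisons of a few arrays, 4 members were called for tamoxifen against vehicle (0.933% of all genes were called higher) and 26 for the combination against rapamycin (1.13% called higher). Averaged over both backgrounds, which uses all 9 arrays, 33 members were called higher (3.24% of all genes were). The median change over the 40 members was 1.11. This averaged change was positive for 40 of 40 members (45.7% of all genes), and 40 had an unadjusted p under 0.05 (9.17% of all genes were higher at that level).

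The median over the 40 members shows the order of the arrays. It was 6.20 and 6.11 in the vehicle arrays, 6.90 and 7.54 with tamoxifen, 5.98, 5.71 and 5.58 with rapamycin, and 7.14 and 7.72 with both drugs. All 4 arrays from tamoxifen-treated mice lay above all 5 others for this median. The same complete separation held for 30 of the 40 members taken one by one, against 4.99% of all genes. The rapamycin arrays were the lowest: a rapamycin array held the lowest of the 9 values for 29 members, and a vehicle array for the other 11 (a rapamycin array was lowest for 30.4% of all genes).

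**Figure D1:**
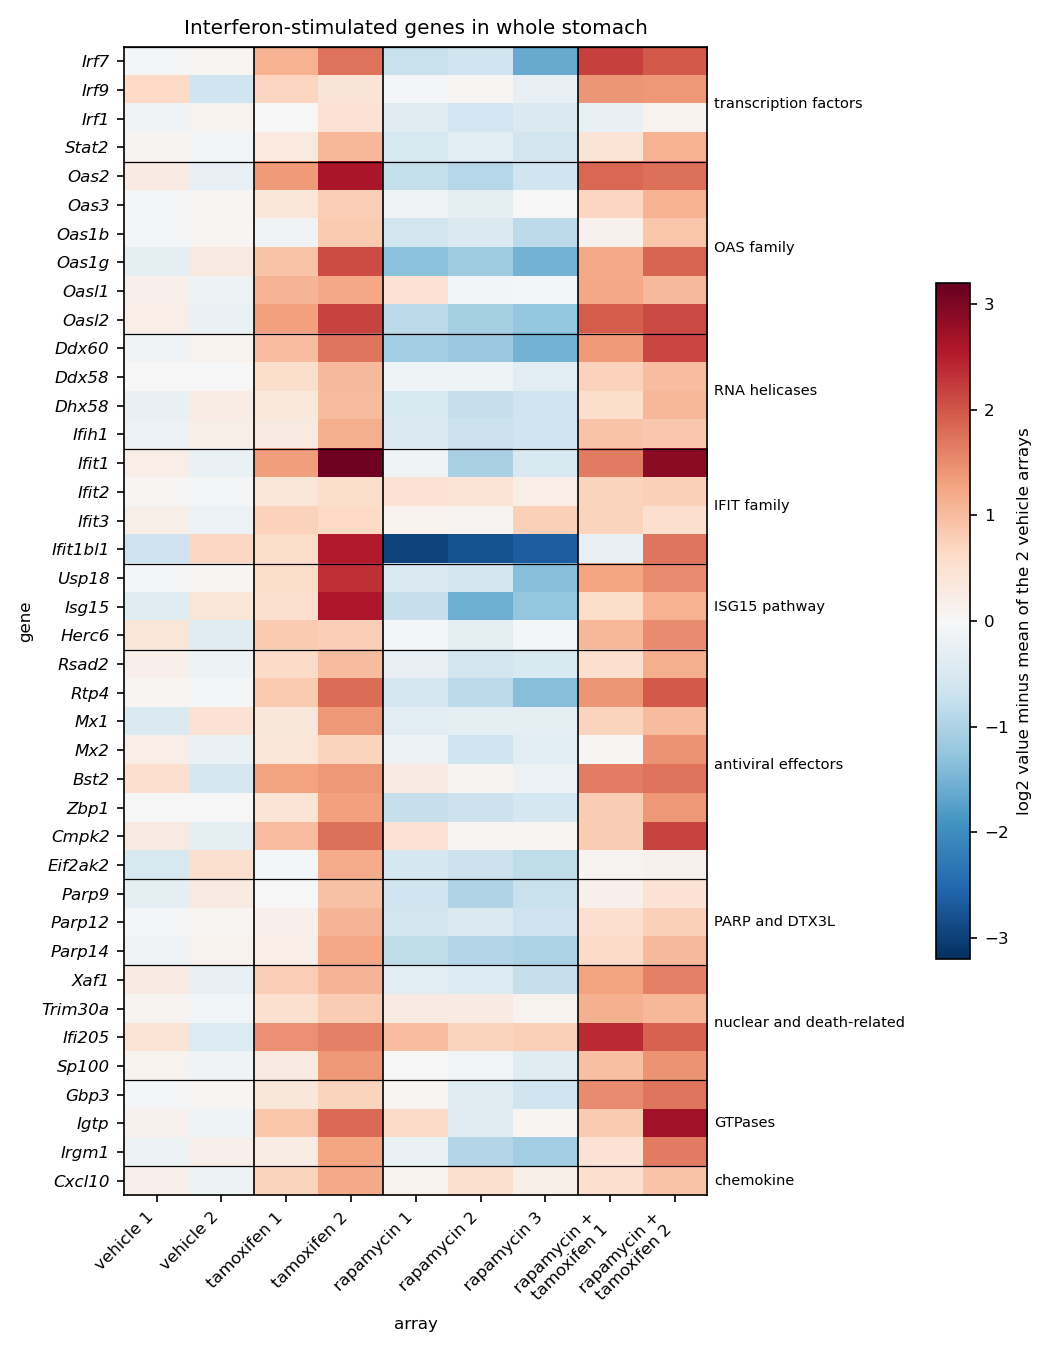
Each row is 1 of the 40 interferon-stimulated genes, grouped by role, and each column 1 of the 9 whole-stomach arrays; colour gives the log2 value minus the mean of the 2 vehicle arrays, red higher and blue lower. The 4 arrays from tamoxifen-treated mice are mostly red and the 3 rapamycin arrays mostly blue, with tamoxifen 2 redder than tamoxifen 1 in 37 of 40 rows.

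The promoters of these genes show what many of them share beyond their response here. RefSeq promoters (assembly GRCm38.p6, 250 bases before to 50 after a gene's start) were at hand for 34 of the 44 symbols. A simple ISRE-like motif, GAAA followed by any 2 bases and then GAAA, searched on both strands with overlapping matches counted, was present for 21 of the 34 (61.8%), compared with 3.99% of the 27025 genes with a promoter in the table. The stricter form, with C as the first of the 2 middle bases, whose matches are all matches of the first as well, was present for 12 (35.3%) against 0.792%. A GAS-like motif, TTCNNNGAA, was present for 6 (17.6%) against 9.55%. These are matches of letters, not measured binding sites.

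To show what promoters with and without the motif look like, the 150 bases before the start are printed for 7 members of several roles, chosen after their values were seen, each 5′ to 3′ on the gene's own strand, with ISRE-like matches in capitals. Capitals with TTTC in place of GAAA are the same motif on the opposite strand, and runs longer than the motif are overlapping matches. Ddx60, Gbp3 (the more upstream of its starts), Ifit1, Isg15 and Oas1g carry 2 or 3 matches each, while Irf7 and Oasl2, whose changes from rapamycin to the combination were over 3, have none in this window, which says only that these letters are not there.
Ddx60, chr8:61927937-61928086, plus strand: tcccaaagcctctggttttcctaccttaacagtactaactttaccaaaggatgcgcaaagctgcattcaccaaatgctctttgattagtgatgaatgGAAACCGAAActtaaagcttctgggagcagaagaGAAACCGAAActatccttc
Gbp3, chr3:142559894-142560043, plus strand: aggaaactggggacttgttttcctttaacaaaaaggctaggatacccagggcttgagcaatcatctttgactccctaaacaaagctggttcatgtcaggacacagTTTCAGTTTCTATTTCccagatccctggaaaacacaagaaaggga
Ifit1, chr19:34640739-34640888, plus strand: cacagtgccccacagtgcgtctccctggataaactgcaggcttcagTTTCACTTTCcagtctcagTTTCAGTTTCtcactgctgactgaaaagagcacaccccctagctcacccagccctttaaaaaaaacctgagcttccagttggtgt
Isg15, chr4:156200819-156200968, minus strand: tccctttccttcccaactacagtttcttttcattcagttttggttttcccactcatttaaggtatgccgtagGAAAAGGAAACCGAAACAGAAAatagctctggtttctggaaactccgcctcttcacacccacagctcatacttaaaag
Oas1g, chr5:120887614-120887763, minus strand: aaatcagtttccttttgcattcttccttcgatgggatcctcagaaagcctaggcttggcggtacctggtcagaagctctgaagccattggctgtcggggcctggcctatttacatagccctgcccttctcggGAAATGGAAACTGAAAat
Irf7, chr7:141266425-141266574, minus strand: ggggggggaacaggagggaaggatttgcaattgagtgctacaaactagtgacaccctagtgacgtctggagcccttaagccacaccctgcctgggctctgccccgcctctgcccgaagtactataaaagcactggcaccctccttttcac
Oasl2, chr5:114896784-114896933, plus strand: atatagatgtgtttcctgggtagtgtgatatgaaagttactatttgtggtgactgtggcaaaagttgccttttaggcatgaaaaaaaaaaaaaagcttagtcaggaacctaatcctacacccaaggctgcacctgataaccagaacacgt

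The response was then read in members with and without a match. Of the 30 members with both a promoter and a value, 19 had an ISRE-like match and 11 had none. From rapamycin to the combination, 13 of the 19 and 7 of the 11 were called higher, with median changes of 1.48 and 1.35. From vehicle to tamoxifen it was 1 of 19 and 2 of 11, with medians of 0.81 and 0.84. With the stricter motif, 7 of 11 members with a match and 13 of 19 without one were called higher from rapamycin to the combination. Outside the set, 13 of 638 genes with a match (2.04%) and 170 of 16322 without one (1.04%) were called higher in that comparison. With the stricter motif it was 6 of 133 (4.51%) against 177 of 16827 (1.05%). From vehicle to tamoxifen, 1.1% of the other genes with an ISRE-like match and 0.986% of those without one were called higher. These shares are descriptions, with no test.

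Of the transcription factors that carry interferon signals, Irf7, Stat2, Irf9 and Irf1 were in the set. Irf7, the regulator that amplifies type I interferon production, had values of 6.88 and 6.99 in vehicle, 8.05 and 8.67 with tamoxifen, 6.22, 6.31 and 5.31 with rapamycin, and 9.12 and 8.90 with both drugs. Each of the 4 groups occupied its own range, with rapamycin lowest and the combination highest. Irf7 rose by 2.25 ± 0.22 (adjusted p = 0.000829) for tamoxifen averaged over rapamycin and by 3.07 ± 0.30 (adjusted p = 0.00323) from rapamycin to the combination, an 8.37-fold difference. Against vehicle alone the tamoxifen change was 1.43 ± 0.33 (adjusted p = 0.0779), short of the threshold.

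Stat2, the STAT partner used chiefly in type I and type III signalling, read 7.58 and 7.42 in vehicle, 7.82 and 8.55 with tamoxifen, 6.99, 7.14 and 6.91 with rapamycin, and 7.94 and 8.62 with both drugs. Its tamoxifen-treated arrays all exceeded the rest, and it rose by 1.27 ± 0.25 (adjusted p = 0.0367) under rapamycin and by 0.97 ± 0.19 (adjusted p = 0.0169) averaged. Irf9, the DNA-binding part of ISGF3, read 7.74 and 6.46 in vehicle, 7.78 and 7.51 with tamoxifen, 7.03, 7.14 and 6.83 with rapamycin, and 8.52 and 8.50 with both drugs. Its vehicle arrays differed from each other by more than vehicle and tamoxifen means did, and the groups overlapped. The change was 0.55 ± 0.34 (adjusted p = 0.710) without rapamycin but 1.51 ± 0.31 (adjusted p = 0.0435) with it. Irf1, a factor induced chiefly by type II interferon, changed least of the 40 members in the averaged comparison, at 0.32 ± 0.13 (adjusted p = 0.244), and was called in no comparison. Its values were 6.65 and 6.87 in vehicle, 6.76 and 7.21 with tamoxifen, 6.37, 6.15 and 6.29 with rapamycin, and 6.52 and 6.88 with both drugs, and the tamoxifen and vehicle groups overlapped.

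Enzymes of the OAS family make the second messenger that activates the RNA-degrading enzyme RNase L, an activity that not every family member has. Of 6 measured members, 5 were called higher from rapamycin to the combination (1.13% of all genes were). From vehicle to tamoxifen, 3 were called higher (0.933% of all genes were). All 6 changes were positive in both comparisons. Oasl2 read 7.63 and 7.18 in vehicle, 8.71 and 9.57 with tamoxifen, 6.57, 6.35 and 6.17 with rapamycin, and 9.34 and 9.52 with both drugs. No tamoxifen-treated array fell within 1 log2 unit of any array without tamoxifen. It rose by 1.73 ± 0.28 (adjusted p = 0.0231) without rapamycin, by 3.06 ± 0.26 (adjusted p = 0.00147) with it, and by 2.40 ± 0.19 (adjusted p = 0.000437) averaged, the smallest adjusted p of the set in each case.

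Oas2 read 6.65 and 6.11 in vehicle, 7.73 and 9.0 with tamoxifen, 5.62, 5.46 and 5.73 with rapamycin, and 8.22 and 8.15 with both drugs. Here tamoxifen 2 stood far above tamoxifen 1, and the combined arrays were close together. It rose by 1.99 ± 0.35 (adjusted p = 0.0313) without rapamycin and 2.58 ± 0.32 (adjusted p = 0.00578) with it. Oasl1 read 8.31 and 8.0 in vehicle, 9.25 and 9.39 with tamoxifen, 8.63, 8.07 and 8.08 with rapamycin, and 9.39 and 9.19 with both drugs, and the rapamycin arrays overlapped the vehicle arrays. It rose by 1.16 ± 0.21 (adjusted p = 0.0351) and 1.02 ± 0.20 (adjusted p = 0.0316) in the same comparisons, 2 nearly equal changes.

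Oas1g, close in sequence to the unmeasured Oas1a, read 6.23 and 6.80 in vehicle, 7.43 and 8.60 with tamoxifen, 5.20, 5.38 and 4.99 with rapamycin, and 7.73 and 8.38 with both drugs. The 3 rapamycin arrays were the lowest, all more than 0.8 below vehicle, and the gene rose by 2.87 ± 0.34 (adjusted p = 0.00500) to the combination. Oas3 rose by 1.04 ± 0.18 from rapamycin to the combination and by 0.81 ± 0.13 averaged. Oas1b, annotated in RefSeq as a transcribed pseudogene in this strain's genome, was called nowhere, with changes of 0.37 ± 0.33 and 1.13 ± 0.30. Oas1 paralogs are close enough in sequence that probes may be shared between transcripts, so the split among them is uncertain.

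**Figure D2:**
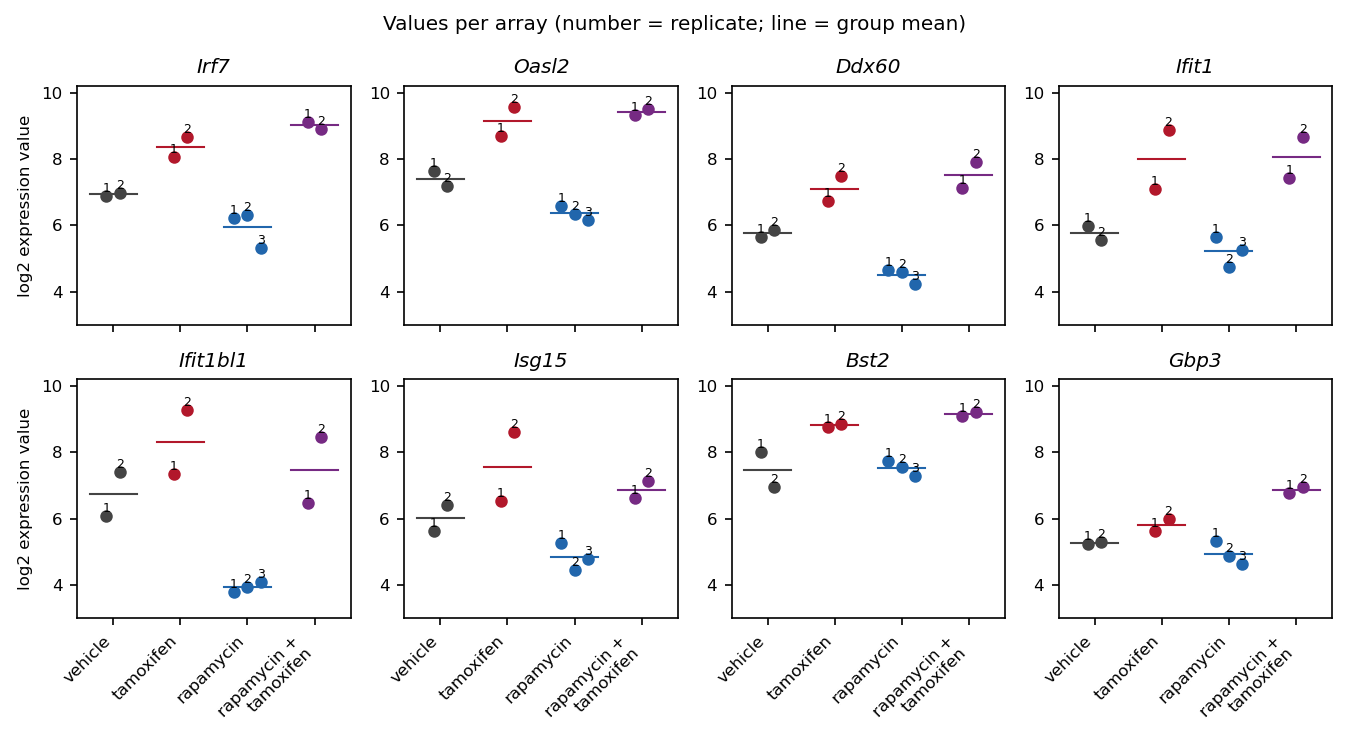
Log2 expression of 8 members in each whole-stomach array; points are single arrays numbered by replicate and lines are group means. All members shown except Ifit1bl1 have separate ranges for tamoxifen-treated and other arrays. Ifit1, Ifit1bl1 and Isg15 spread by more than 1 log2 unit within the tamoxifen group.

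All 4 RNA helicases of the set rose from rapamycin to the combination and in the averaged comparison. Ddx60, a helicase implicated in antiviral RNA recognition, read 5.65 and 5.87 in vehicle, 6.74 and 7.48 with tamoxifen, 4.67, 4.58 and 4.23 with rapamycin, and 7.12 and 7.90 with both drugs. The rapamycin arrays were more than 0.9 below the vehicle arrays, and the tamoxifen-treated arrays all lay higher than both. Ddx60 rose by 3.01 ± 0.28 (adjusted p = 0.00230) under rapamycin and by 2.18 ± 0.21 (adjusted p = 0.000744) averaged.

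Ddx58, which encodes the RNA sensor RIG-I, read 6.67 and 6.66 in vehicle, 7.24 and 7.70 with tamoxifen, 6.52, 6.53 and 6.32 with rapamycin, and 7.40 and 7.66 with both drugs. Vehicle arrays were nearly identical, and it rose by 1.07 ± 0.17 (adjusted p = 0.0136). Ifih1, which encodes the long-RNA sensor MDA5, read 7.46 and 7.85 in vehicle, 7.95 and 8.82 with tamoxifen, 7.19, 6.98 and 7.02 with rapamycin, and 8.56 and 8.52 with both drugs and rose by 1.48 ± 0.24 (adjusted p = 0.0164). Dhx58, which encodes LGP2, a regulator of both sensors, read 5.76 and 6.24 in vehicle, 6.34 and 7.01 with tamoxifen, 5.53, 5.26 and 5.36 with rapamycin, and 6.56 and 7.07 with both drugs and rose by 1.43 ± 0.24 (adjusted p = 0.0211). For these 3 sensors the tamoxifen-treated arrays lay above all others, the rapamycin arrays lay below both vehicle arrays, and the changes without rapamycin (0.80, 0.73 and 0.68 in the same order) were not called.

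The IFIT proteins bind viral RNA with unusual ends and block its translation. Ifit1 read 5.99 and 5.55 in vehicle, 7.10 and 8.89 with tamoxifen, 5.66, 4.74 and 5.25 with rapamycin, and 7.44 and 8.66 with both drugs. Replicate 2 was more than 1.2 above replicate 1 in both tamoxifen-treated groups. Ifit1 rose by 2.84 ± 0.53 (adjusted p = 0.0293) under rapamycin and 2.53 ± 0.39 (adjusted p = 0.00633) averaged, while the change against vehicle, 2.22 ± 0.58 (adjusted p = 0.117), was the largest of the set there but not called.

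Ifit1bl1, an Ifit1-like neighbour, had the widest range of the set. It read 6.09 and 7.41 in vehicle, 7.35 and 9.28 with tamoxifen, 3.79, 3.96 and 4.11 with rapamycin, and 6.48 and 8.45 with both drugs. All 3 rapamycin arrays were at or below 4.11, more than 1.9 below every other array, so the change from rapamycin to the combination was the largest of the 40 members at 3.51 ± 0.68 (adjusted p = 0.0329). From vehicle to rapamycin it was -2.79 ± 0.68 (adjusted p = 0.333), the largest negative change of the set and not called.

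Ifit2 and Ifit3 differed from their relatives. Ifit2 read 4.20 and 4.14 in vehicle, 4.56 and 4.73 with tamoxifen, 4.64, 4.59 and 4.38 with rapamycin, and 4.88 and 4.92 with both drugs, a narrow range in which the rapamycin arrays were above vehicle; it rose by 0.42 ± 0.10 (adjusted p = 0.0382) averaged, a call lost in all 9 cases with an array left out. Ifit3 read 5.68 and 5.28 in vehicle, 6.22 and 6.11 with tamoxifen, 5.59, 5.57 and 6.24 with rapamycin, and 6.20 and 6.01 with both drugs. Rapamycin and combined arrays overlapped, and its changes of 0.69 ± 0.24 and 0.30 ± 0.22 were not called. IFIT genes are similar in sequence, so signal shared between them was not separated.

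In the pathway of ISG15, a ubiquitin-like protein attached to other proteins during infection, all 3 measured genes rose in the averaged comparison. Isg15 itself read 5.63 and 6.40 in vehicle, 6.53 and 8.61 with tamoxifen, 5.29, 4.46 and 4.78 with rapamycin, and 6.61 and 7.13 with both drugs. Tamoxifen 2 stood about 2 above tamoxifen 1, and the change, 1.79 ± 0.40 (adjusted p = 0.0326) averaged, was called there but neither without rapamycin (1.55 ± 0.59) nor with it (2.03 ± 0.54 (adjusted p = 0.105)). Usp18 encodes the protease that removes ISG15 and also damps the interferon receptor. It read 6.36 and 6.50 in vehicle, 7.01 and 8.76 with tamoxifen, 5.98, 5.85 and 5.08 with rapamycin, and 7.68 and 7.94 with both drugs, again with the highest value in tamoxifen 2, and rose by 2.18 ± 0.45 (adjusted p = 0.0450) under rapamycin. Herc6, the mouse ligase that attaches ISG15, read 6.62 and 5.83 in vehicle, 7.06 and 7.01 with tamoxifen, 6.16, 5.94 and 6.17 with rapamycin, and 7.28 and 7.73 with both drugs. All tamoxifen-treated arrays lay above the rest, and it rose by 1.41 ± 0.23 (adjusted p = 0.0173).

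Among 8 measured antiviral effectors, 4 were called higher from rapamycin to the combination (1.13% of all genes were). In the averaged comparison 6 were called higher (3.24% of all genes were). All 8 changes were positive in both comparisons. Rtp4, a chaperone-like protein with antiviral activity, read 7.23 and 7.12 in vehicle, 8.01 and 8.96 with tamoxifen, 6.64, 6.34 and 5.82 with rapamycin, and 8.60 and 9.14 with both drugs. It rose by 2.60 ± 0.32 (adjusted p = 0.00512) under rapamycin. Bst2 encodes tetherin, which holds budding viruses at the cell surface. It read 8.02 and 6.95 in vehicle, 8.77 and 8.86 with tamoxifen, 7.75, 7.57 and 7.29 with rapamycin, and 9.11 and 9.22 with both drugs, and although the vehicle arrays were 1.07 apart, all 4 tamoxifen-treated arrays lay above them; Bst2 rose by 1.63 ± 0.28 (adjusted p = 0.0210), with the rapamycin mean close to the vehicle mean.

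Zbp1, a sensor of Z-form nucleic acid that can trigger cell death, read 5.98 and 5.99 in vehicle, 6.43 and 7.31 with tamoxifen, 5.24, 5.29 and 5.42 with rapamycin, and 6.81 and 7.38 with both drugs and rose by 1.78 ± 0.26 (adjusted p = 0.00980). Rsad2, which encodes viperin, an enzyme that makes a chain-terminating nucleotide, read 6.16 and 5.84 in vehicle, 6.61 and 7.01 with tamoxifen, 5.74, 5.42 and 5.51 with rapamycin, and 6.53 and 7.17 with both drugs and rose by 1.29 ± 0.22 (adjusted p = 0.0210). In both, the rapamycin arrays lay below the vehicle arrays and the tamoxifen-treated arrays above. The other effectors were Cmpk2, the kinase encoded beside Rsad2, the dynamin-like GTPase genes Mx1 and Mx2, and Eif2ak2, which encodes the translation-blocking kinase PKR. Averaged changes were 1.34 ± 0.29 (adjusted p = 0.0292) for Cmpk2 and 1.03 ± 0.24 (adjusted p = 0.0405) for Mx1, both called, and 0.84 ± 0.27 (adjusted p = 0.119) for Mx2 and 0.68 ± 0.28 (adjusted p = 0.232) for Eif2ak2, both not called. Groups overlapped between tamoxifen and vehicle for Mx1 and Eif2ak2. Mx1 is known to carry an inactivating deletion in C57BL mice, so its transcript here need not stand for working protein.

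PARP enzymes attach ADP-ribose to proteins, and several are interferon-induced. Parp14 read 6.93 and 7.16 in vehicle, 7.25 and 8.29 with tamoxifen, 6.24, 6.11 and 6.03 with rapamycin, and 7.65 and 8.09 with both drugs and rose by 1.75 ± 0.28 (adjusted p = 0.0148). Parp12 read 8.10 and 8.24 in vehicle, 8.35 and 9.25 with tamoxifen, 7.59, 7.71 and 7.51 with rapamycin, and 8.70 and 8.94 with both drugs and rose by 1.22 ± 0.24 (adjusted p = 0.0343). In both genes tamoxifen 2 was the highest of the 9 arrays and the rapamycin arrays were the lowest 3. Parp9, whose protein works with the unmeasured Dtx3l, read 6.65 and 7.25 in vehicle, 6.98 and 7.90 with tamoxifen, 6.32, 5.99 and 6.23 with rapamycin, and 7.12 and 7.42 with both drugs; vehicle 2 was above tamoxifen 1, and it was called in no comparison (averaged change 0.79 ± 0.21 (adjusted p = 0.0648)).

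All 4 nuclear or death-related genes rose in the averaged comparison. Ifi205, of the HIN-200 family of DNA-binding proteins, read 5.82 and 4.92 in vehicle, 6.82 and 6.97 with tamoxifen, 6.36, 6.07 and 6.13 with rapamycin, and 7.77 and 7.25 with both drugs. Unlike most members it was higher with rapamycin than in vehicle, in every array, and it rose by 1.53 ± 0.29 (adjusted p = 0.0372) without rapamycin and by 1.32 ± 0.26 (adjusted p = 0.0366) with it. Xaf1, a promoter of cell death, read 6.60 and 6.06 in vehicle, 7.12 and 7.42 with tamoxifen, 5.99, 5.89 and 5.59 with rapamycin, and 7.61 and 7.94 with both drugs and rose by 1.95 ± 0.21 (adjusted p = 0.00375). Trim30a read 3.36 and 3.18 in vehicle, 3.78 and 4.09 with tamoxifen, 3.57, 3.53 and 3.39 with rapamycin, and 4.40 and 4.32 with both drugs, low values with small spread, and rose by 0.86 ± 0.14 (adjusted p = 0.0172).

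Sp100, a component of nuclear bodies, read 6.33 and 6.11 in vehicle, 6.50 and 7.62 with tamoxifen, 6.20, 6.13 and 5.84 with rapamycin, and 7.17 and 7.65 with both drugs and rose by 1.10 ± 0.22 (adjusted p = 0.0223) averaged. It was the only member with more than 1 probe set, and its 4 probe sets disagreed. From vehicle to tamoxifen they gave 0.84 (the brightest, used here), 0.54, -0.32 and -0.08. From rapamycin to the combination they gave 1.35, 0.92, 0.11 and -0.07, so the dimmer pair showed little change.

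The GTPases that attack membranes around intracellular pathogens included Gbp3, whose interaction between the drugs had the smallest unadjusted p of the set. Gbp3 read 5.24 and 5.29 in vehicle, 5.64 and 5.99 with tamoxifen, 5.34, 4.87 and 4.64 with rapamycin, and 6.78 and 6.97 with both drugs. The tamoxifen arrays were above vehicle, and the combined arrays above everything else. The change was 0.55 ± 0.23 (adjusted p = 0.420) without rapamycin and 1.92 ± 0.21 (adjusted p = 0.00383) with it. Irgm1 read 4.92 and 5.22 in vehicle, 5.31 and 6.32 with tamoxifen, 4.85, 4.12 and 3.95 with rapamycin, and 5.53 and 6.73 with both drugs and rose by 1.28 ± 0.31 (adjusted p = 0.0462) averaged, near the threshold. Igtp, which encodes Irgm3, read 5.65 and 5.35 in vehicle, 6.38 and 7.31 with tamoxifen, 6.12, 5.10 and 5.57 with rapamycin, and 6.33 and 8.18 with both drugs; the combined arrays were 1.85 apart and it was called nowhere.

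Cxcl10, the chemokine that draws activated T cells, read 5.15 and 4.81 in vehicle, 5.69 and 6.20 with tamoxifen, 5.09, 5.48 and 5.16 with rapamycin, and 5.51 and 5.90 with both drugs. The tamoxifen-treated arrays lay above the rest, and it rose by 0.72 ± 0.16 (adjusted p = 0.0311) averaged. Unlike the helicases and most OAS genes, its change was larger without rapamycin (0.97) than with it (0.47), and the difference of -0.50 ± 0.31 between these changes was not called.

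Replicates within the tamoxifen group were unequal. Tamoxifen 2 was above tamoxifen 1 in 37 of 40 members, compared with 55.9% of all genes, and combined 2 above combined 1 in 32, compared with 49.2%. The vehicle arrays showed no such order, with vehicle 2 the higher in 19. Taken gene by gene, the median difference over members was 0.53 from vehicle 1 to tamoxifen 1 and 1.17 from vehicle 2 to tamoxifen 2. Tamoxifen 2 held the highest of the 9 values for 16 members, and a combined array for 23.

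The count of 4 for tamoxifen against vehicle (Oasl2, Oas2, Oasl1 and Ifi205) rested on single arrays. It was 12 without tamoxifen 1, 1 without tamoxifen 2, 2 without vehicle 1 and 0 without vehicle 2. It also moved when rapamycin arrays were left out, which feed only the shared spread: 2 without rapamycin 1, 0 without rapamycin 2 and 2 without rapamycin 3. The count of all genes called higher fell from 207 to 94, 81 and 85 in the same order. At p under 0.05, 32 of 40 members were higher without adjustment, where 6.15% of genes were, and the arrays of both groups did not overlap for 33 members (13.4% of all genes did so in this direction).

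For the combination against rapamycin, 39 of 40 members had groups that did not overlap, compared with 18.7% of all genes. At p under 0.05 without adjustment 37 were higher, where 6.5% of genes were. The count of 26 fell to 15 without rapamycin 1, 8 without rapamycin 2 and 9 without rapamycin 3. The count of all genes called higher fell too, from 251 to 109, 66 and 76 in the same order. Without combined 1 the member median was 1.66, and without combined 2 it was 1.18. Leaving 1 array in a group assumes that it varies like the other groups. Oasl2 and Ddx60 were called in all 9 such cases, and Irf7, Oas1g and Xaf1 in 8. The averaged comparison was steadier: its 33 calls became 20 without combined 2 and lay between 20 and 34 over the 9 cases, and 20 of the 33 members were called in every case.

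**Figure D3:**
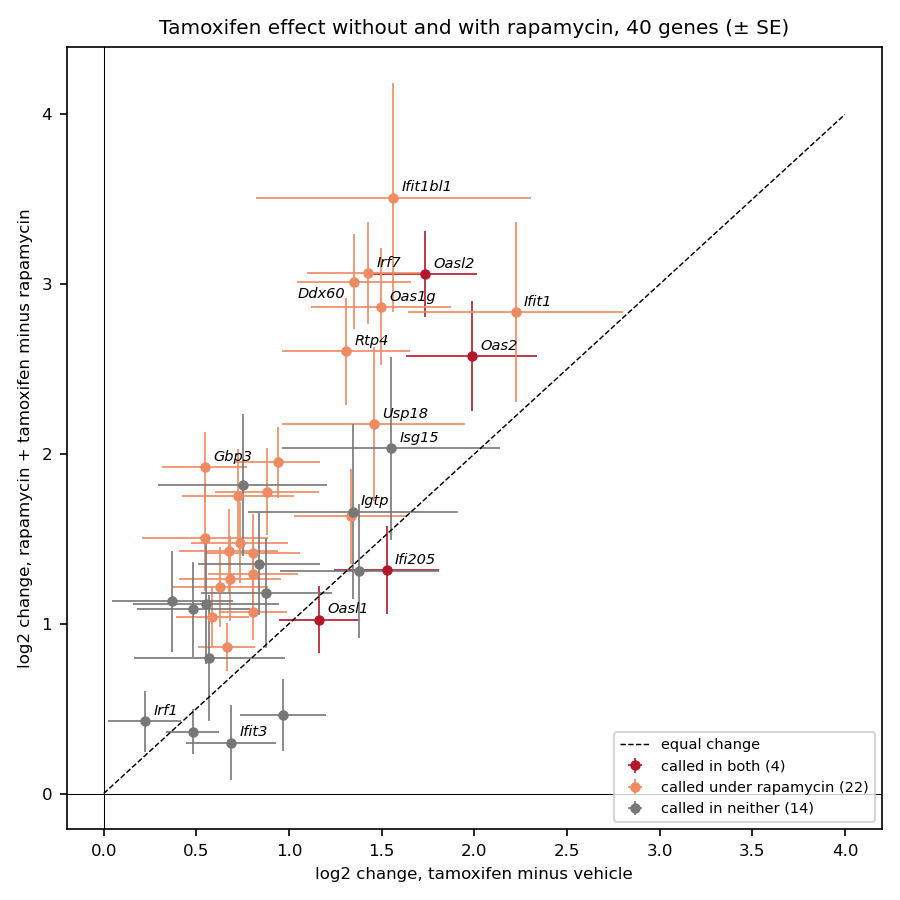
Tamoxifen's log2 change without rapamycin (horizontal axis) and with it (vertical axis) for the 40 members, with standard errors as bars; colour marks which changes were called, and the dashed line marks equal change. All 40 points lie right of and above 0, and 34 lie above the dashed line.

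Both tamoxifen effects come from separate arrays, and across members they followed each other. Pearson's r was 0.73 and Spearman's rho 0.68 over the 40 members, a description over genes that share the same arrays (0.66 and 0.49 over all genes). Only Oasl2, Oas2, Oasl1 and Ifi205 were called in both. The change was larger under rapamycin for 34 of 40 members (48.2% of all genes).

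The difference between the tamoxifen effects, tested as an interaction, was called by limma for 0 members and for 0 of the 22180 genes tested. Without adjustment, at p under 0.05, it was positive for 9 members and negative for 0, where 1.27% and 1.56% of genes were. The 9 were Ddx60 (1.67 ± 0.42), Irf7 (1.64 ± 0.44), Gbp3 (1.38 ± 0.31), Oas1g (1.37 ± 0.51), Oasl2 (1.33 ± 0.38), Rtp4 (1.30 ± 0.47), Parp14 (1.02 ± 0.41), Xaf1 (1.01 ± 0.31) and Zbp1 (0.89 ± 0.38), each with an adjusted p of 1.0. The median over members was 0.59, and it was 0.23 without tamoxifen 1 and 1.05 without tamoxifen 2.

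Rapamycin alone gave mostly lower values that were not called. From vehicle to rapamycin 0 of 40 members were called by limma (0.0496% of all genes were called in either direction), with a median of -0.50 against -0.02 for all genes and with 9 members positive (46.8% of all genes). Without adjustment, at p under 0.05, 15 were lower and 2 higher, against 4.6% and 4.31% of all genes. All 3 rapamycin arrays lay below both vehicle arrays for 23 members (14.3% of all genes) and above both for 3 (12.7%), which were Ifit2, Trim30a and Ifi205. The most negative changes were -2.79 ± 0.68 (adjusted p = 0.333) for Ifit1bl1, -1.33 ± 0.34 (adjusted p = 0.368) for Oas1g, -1.26 ± 0.28 (adjusted p = 0.291) for Ddx60, -1.18 ± 0.54 (adjusted p = 0.576) for Isg15 and -1.04 ± 0.26 (adjusted p = 0.333) for Oasl2. Ifi205 gave the most positive, 0.82 ± 0.26 (adjusted p = 0.453). The comparison of the combination with rapamycin uses the same rapamycin arrays.

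Rapamycin made no called difference in tamoxifen-treated stomach. Between tamoxifen and the combination limma called 0 members and 0 of all genes, with 3 members higher and 0 lower at an unadjusted p under 0.05 (2.36% of genes were higher and 3.31% lower). The member median was 0.14, and it moved to -0.20 without tamoxifen 1 and to 0.51 without tamoxifen 2. The combined arrays lay above the tamoxifen arrays for 9 members, against 16.1% of all genes.

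Both drugs together against vehicle gave 9 called members, compared with 0.41% of all genes called higher. They were Ifi205 (2.14 ± 0.29 (adjusted p = 0.0136)), Irf7 (2.08 ± 0.33 (adjusted p = 0.0255)), Oasl2 (2.02 ± 0.28 (adjusted p = 0.0144)), Ddx60 (1.75 ± 0.31 (adjusted p = 0.0369)) and Bst2 (1.68 ± 0.30 (adjusted p = 0.0414)), followed by Gbp3 (1.61 ± 0.23 (adjusted p = 0.0158)), Xaf1 (1.45 ± 0.23 (adjusted p = 0.0255)), Oasl1 (1.13 ± 0.21 (adjusted p = 0.0476)) and Trim30a (1.09 ± 0.15 (adjusted p = 0.0158)). The median change was 1.07, and the groups did not overlap for 35 members (19.3% of all genes). The count of members was 5 without rapamycin 2, where the count of all genes called higher fell from 91 to 30. Without combined 1 the median change was 1.40, and without combined 2 it was 0.82. Irf1 was the only member below vehicle, at -0.06.

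Across every comparison 7 members were never called: Eif2ak2, Ifit3, Igtp, Irf1, Mx2, Oas1b and Parp9. Another 7 were called only when tamoxifen was averaged over both backgrounds and not from rapamycin to the combination. These were Isg15, Cmpk2, Irgm1, Sp100, Mx1, Cxcl10 and Ifit2. Irf1, Igtp and Irgm1 are targets of type II as well as type I interferon.

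Genes of the pathway outside the 44 symbols were read from separate lists, which by construction leave out members such as Stat2, Irf9, Irf7, Ddx58, Ifih1 and Zbp1. Of 19 measured interferon ligand genes 0 were called in any of the 7 comparisons, with medians of -0.02 from vehicle to tamoxifen and 0.03 from rapamycin to the combination. Ifnb1, the first type I interferon made by most cells, read 3.57 and 3.92 in vehicle, 3.26 and 3.72 with tamoxifen, 3.22, 3.35 and 3.36 with rapamycin, and 3.36 and 3.33 with both. Ifng, the type II interferon, read 4.59 and 3.83, 4.80 and 3.83, 4.56, 4.66 and 4.91, and 4.55 and 4.50 in the same order. Neither was called in any comparison. Low probe-set values of this kind may lie near the array's background, for which the table holds no level.

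The 6 interferon receptor genes, 7 measured signalling genes and 8 measured nucleic acid sensors and adaptors that are not members likewise gave 0 calls in every comparison, with medians between -0.08 and 0.14 in both tamoxifen comparisons. Of 6 measured negative regulators, Adar, which encodes the RNA-editing enzyme ADAR1, was called from rapamycin to the combination at 0.56 ± 0.12 (adjusted p = 0.0488). Ptpn2, a phosphatase acting on JAK and STAT proteins, was called with Adar in the averaged comparison.

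Other interferon-induced genes, 38 measured outside the 44 symbols, moved less. Both lists were chosen with earlier results of these data known, so this is a description, not an independent test. From vehicle to tamoxifen, 1 was called (0.933% of all genes called higher) and the median was 0.33. From rapamycin to the combination, 6 were called (1.13% called higher) and the median was 0.71. Ifitm3, which blocks viral entry, rose in both, by 1.18 ± 0.20 (adjusted p = 0.0264) and 0.93 ± 0.18 (adjusted p = 0.0352). Also higher under rapamycin were Irgm2 by 1.59 ± 0.32, Lgals3bp by 1.03 ± 0.22, Uba7, the activating enzyme of ISG15, by 0.89 ± 0.17, Nlrc5, a transactivator of MHC class I genes, by 0.86 ± 0.16, and Ifi35 by 0.71 ± 0.14. In the averaged comparison 11 of the 38 were called higher and 1 lower, against 3.24% and 2.61% of all genes. There 29 of the 38 changes were positive (45.7% of all genes), and the lowest was -0.94.

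**Figure D4:**
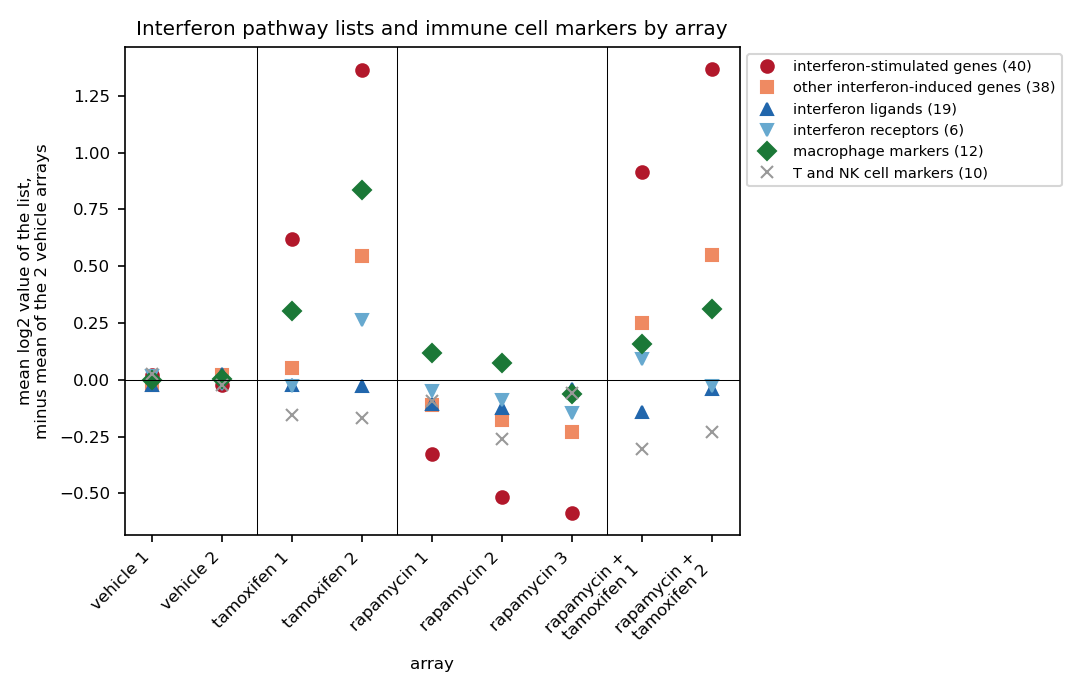
Mean log2 value of each list in the 9 whole-stomach arrays, minus its mean in the 2 vehicle arrays. The interferon-stimulated genes reach 1.37 in tamoxifen 2 and in combined 2, the ligand genes lie between -0.14 and 0.02, and macrophage markers reach 0.84 in tamoxifen 2.

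Markers of immune cells were read beside the set, since such cells carry interferon-stimulated transcripts. Macrophage markers (12 of 12 measured) averaged 6.60 in both vehicle arrays, 6.91 and 7.44 with tamoxifen, 6.72, 6.68 and 6.54 with rapamycin, and 6.76 and 6.91 with both drugs. Of these, Lyz2 was called from vehicle to tamoxifen and Cd14 from rapamycin to the combination, while Cd68, Lyz2 and Cd14 were called higher in the averaged comparison, where the median was 0.35 and 10 of 12 were positive. The median macrophage change was 0.58 without rapamycin and 0.08 with it, while the median of the interferon-stimulated genes was 0.82 and 1.42. Their part in the result was not tested.

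T and NK cell markers (10 of 12 measured) lay between 4.45 and 4.50 in vehicle, 4.30 and 4.32 with tamoxifen, 4.21 and 4.41 with rapamycin, and 4.17 and 4.24 with both, with 0 called in both tamoxifen comparisons. Of the markers of plasmacytoid dendritic cells, known for high interferon output, Siglech lay between 4.14 and 4.62 over the 9 arrays and was not called, while Bst2 belongs to the set itself and Klk1 was called lower from vehicle to tamoxifen. In the averaged comparison Bst2 and Ly6d were called higher and Klk1 lower, out of 7 measured. Dendritic cell markers (7 of 8 measured) gave 0 calls in both tamoxifen comparisons, and Itgax alone was called higher in the averaged one.

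The epithelium changed beside the set. Parietal cell markers (12 of 12 measured) averaged 10.39 and 10.44 in vehicle, 9.04 and 9.61 with tamoxifen, 10.46, 10.73 and 10.51 with rapamycin, and 9.11 and 9.33 with both. In the averaged comparison 11 of 12 were called lower, against 2.61% of all genes. The tamoxifen-treated arrays were thus the lowest for parietal markers and the highest for the median of the interferon-stimulated genes. Within both tamoxifen-treated groups, replicate 2 was the higher for both measures. Squamous markers of the forestomach (10 of 11 measured) averaged 5.24 and 4.75 in vehicle, 9.32 and 4.95 with tamoxifen, 9.49, 8.21 and 5.39 with rapamycin, and 8.81 and 8.97 with both, so they varied within groups. With their mean as a covariate, 30 members were called in the averaged comparison and 25 from rapamycin to the combination. The count was 2 from vehicle to tamoxifen and 0 for both drugs against vehicle. In the same order 533, 208, 89 and 0 of all genes were called higher, compared with 719, 251, 207 and 91 without the covariate. The median change of the members with the covariate was 0.94 from vehicle to tamoxifen and 1.24 for both drugs against vehicle, compared with 0.82 and 1.07 without it. The part of parietal cells in the result was not tested.

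In the separated cells the set showed no common direction. Both fractions had array medians near 3.67, below those of whole stomach, so they were compared only with each other, and with 1 array each there was no test. Parietal markers were at 9.11 in the parietal fraction and 5.72 in the other cells. Of the 40 members 20 were higher in the parietal cells (51.1% of all genes were), and the median difference was -0.0046 against 0.03 for all genes.

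At least 1 log2 unit higher in the parietal cells were 3 members, against 6.32% of all genes, and at least 1 lower were 2, against 6.46%. At a difference of 2 there was 1 member on each side, against 1.3% and 2.05%. Igtp was at 5.57 in the parietal cells and 3.31 in the other cells, Cxcl10 at 6.83 in the parietal cells and 5.40 in the other cells, and Usp18 at 5.09 in the parietal cells and 3.72 in the other cells. On the other side, Oas1g was at 1.94 in the parietal cells and 5.29 in the other cells, a difference of -3.35, and Oasl1 at 5.32 in the parietal cells and 6.90 in the other cells. Isg15 was just inside the limit at -0.99. The factors Irf7 (0.26), Irf9 (0.62), Irf1 (0.56) and Stat2 (0.25) were all slightly higher in the parietal cells, and the helicases ranged from -0.64 for Ifih1 to 0.21 for Ddx58.

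**Figure D5:**
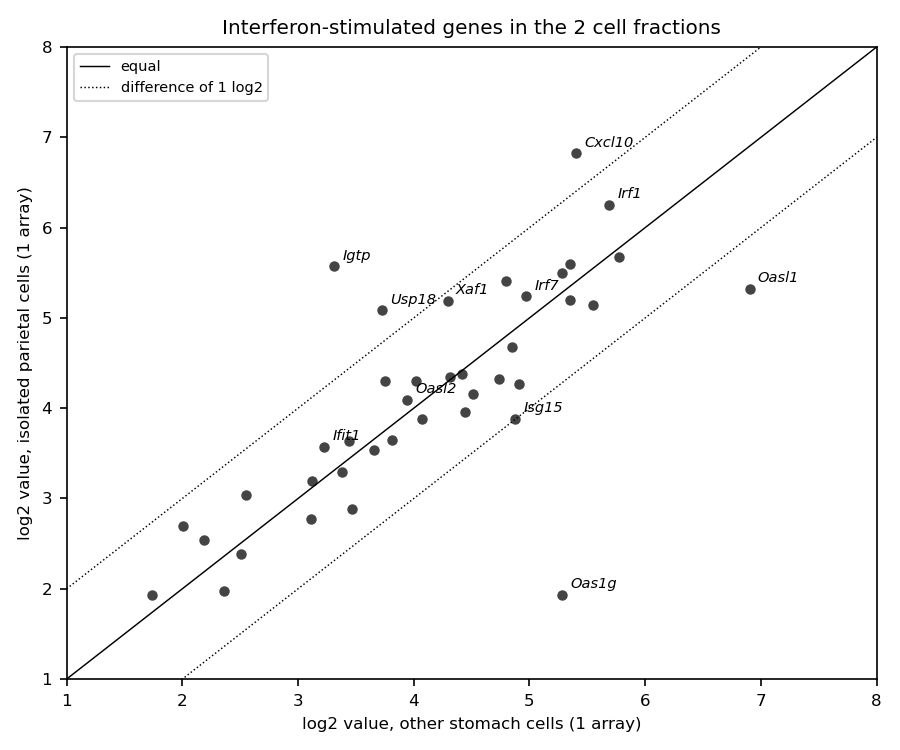
Log2 value of each of the 40 members in isolated parietal cells (vertical axis) and in the other stomach cells (horizontal axis), 1 array each; the solid line marks equal values and the dotted lines a difference of 1. Most points lie between the dotted lines, with Igtp, Cxcl10 and Usp18 above and Oas1g and Oasl1 below.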

How the data were processed

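Total RNA was amplified and biotin-labelled for the arrays, per the labels' protocols. The authors deposited a table of log2 values for 41345 probe sets, made with RMA in Partek per the submitters' processing notes; no version or setting is stated there. Whole-stomach array medians lay between 4.95 and 5.09. Signal over background and depth have no measure in the table, and the number of arrays limits precision.

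The platform table named 1 gene for 23521 probe sets, and the probe set of highest mean was kept per gene. limma 3.58.1 (R 4.3.3) was fitted with 1 mean per group and 1 spread over 9 arrays (5 residual degrees of freedom, prior 3.86). P-values were adjusted by Benjamini-Hochberg over 22180 genes; the code was tested on simulated data. Named were all called members (the 12 largest where more were called, others by count) and up to 4 members per role with their values. Members and lists were chosen with earlier results of these data known. Alternatives covered scaling, dim genes, probe sets, trend, a covariate, a replicate block, the groups fitted and each array left out. Promoters came from RefSeq, GRCm38.p6.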

Additional observations from a re-analysis of the deposited data

How the results depend on the processing

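Medians of the 40 members kept their direction under all alternatives except that for the combination against tamoxifen, whose median ran from -0.20 to 0.51 with 1 array left out. No called change reversed. For tamoxifen against vehicle the 4 calls became 8 with a trend and robust spread and 2 with the squamous covariate. They became 0 with only the groups compared. In the same order 306, 89 and 0 of all genes were called higher, compared with 207 in the main fit. With 1 array left out the member median ran from 0.58 to 1.23. For the combination against rapamycin the 26 calls became 3 to 32 with 1 array left out. The averaged comparison gave 20 to 34 calls with 1 array left out. Both drugs against vehicle gave 0 calls with the squamous covariate and 0 to 19 with 1 array left out, with medians from 0.82 to 1.40. The interaction's median ran from 0.23 to 1.05. Rapamycin against vehicle, the combination against tamoxifen and the interaction gave 0 calls in every alternative run. At a difference of at least 2, 1 member was higher and 1 lower in parietal cells. Apart from alternatives with fewer arrays, the cause was not tested.

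Whether replicate numbers pair the arrays was not settled. Of 12 same-numbered pairs, 3 correlated above 0.1 in their deviations from group means (range -0.11 to 0.56). These were both pairs of vehicle with tamoxifen (0.56) and tamoxifen 1 with rapamycin 1 (0.41). Among differently numbered pairs, tamoxifen 2 with rapamycin 3 correlated at 0.43, and the lowest was -0.56. In a group of 2 arrays the deviations mirror each other, so the pairs are not separate checks. With the replicate block, 2 members were called for tamoxifen against vehicle (0 of the 4) and 13 of the 26 for the combination against rapamycin. With groups of 2 or 3 arrays, a change that was not called may still be present.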
